A study of Drosophila melanogaster with 103 samples.

Results

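The genes teashirt (tsh), tiptop (tio) and homothorax (hth) of Drosophila melanogaster were examined in every deposited ChIP-seq peak list of 3 cultured cell lines. They were chosen by name and are 3 of 13946 protein-coding genes in the gene table used. In dm6 coordinates, tsh is at 2L 21828593 to 21837011 (8419 bp), tio at 2L 22019208 to 22025734 (6527 bp) and hth at 3R 10507561 to 10639568 (132008 bp). Each gene body was examined with 20 kb on each side, called its window below. The gene table gives no strand, so positions are stated from the lower or the higher coordinate end of a gene. The tsh window also overlaps 2 lncRNA genes and 1 pseudogene. The tio window overlaps 3 lncRNA genes and the protein-coding genes CG31693, Grl40a and CG31601. Of the lncRNA genes, lncRNA:CR33987 (22019208 to 22020254) shares the lower end of tio and lies within its body. The hth window overlaps no other protein-coding gene, but it holds 1 lncRNA, 1 microRNA and 1 antisense RNA gene.

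Tsh and Tio are closely related zinc-finger proteins of the teashirt family. Tsh gives the trunk segments their identity and, like Hth, marks the proximal part of the developing appendages, where legs and wings join the body. Hth is a homeodomain protein of the Meis class that binds Exd, brings it into the nucleus and serves with it as a partner of the Hox proteins. Both tsh and hth are known targets of Polycomb group (PcG) proteins, which hold their target genes in a silent state, and of the trithorax group, which acts against it.

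The lines were D17 (ML-DmD17-c3, derived from imaginal disc tissue, the larval tissue that forms adult appendages), S2 (S2-DRSC) and Kc167, both embryonic lines with features of blood cells. The labels give no genotype difference, treatment or time point. There were 2 replicates per antibody and line, fixed from separate flasks, and 1 input per line, 103 libraries in all (41, 41 and 21 for D17, S2 and Kc167). There were 21 antibodies, and D17 and S2 were each profiled with 20 of them and Kc167 with 10.

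The authors deposited 1 peak list per antibody and line, 50 in all, with 227654 peaks (81372 in D17, 53028 in Kc167 and 93254 in S2). Each peak carries the authors' fold enrichment, with a lowest value of 1.5. No list holds values per replicate or library, so neither the spread between replicates nor the depth of a library can be given, and differences between lines or genes could not be tested. A percentile given with a fold is its rank among all peaks of its own list. Folds and percentiles of different lists stand side by side here and do not measure a change. In a bulk culture, a protein or mark in fewer cells and less of it per cell cannot be told apart. Peaks are numbered along the genome, and where numbers are skipped a peak may have been removed. The S2 list of H3K27me3 skips 2 numbers between 2L 21595043 and 22646301, a stretch that holds tsh and tio whole, so the state of this mark at both genes in S2 is unknown.

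As a check of the lines, 8 imaginal disc markers and 8 blood cell markers were searched for H3K27ac, a mark of active promoters and enhancers, within 500 bp of a gene end. In D17, 3 disc markers (wg, en and sd) and 4 blood cell markers carried it. Kc167 had 1 and 2, and S2 had 0 and 3. Among all protein-coding genes the share was 54.8% (D17), 53.5% (Kc167) and 52.1% (S2), so none of these counts lies above it. Hml and Pxn, which mark blood cells, carried H3K27ac in all 3 lines, D17 included. The disc markers vg, nub, Dll, ap and Ubx had no such peak in any line.

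All 3 genes had peaks of the PcG proteins Pc, Ph, Psc and Pho in all 3 lines, but the lists of histone marks over them differed between lines. Over tsh and tio, H3K27me3, the repressive mark made by the PcG complex PRC2, covered 100% of both bodies in Kc167 and 0% of both in D17. The D17 bodies instead carried H3K36me2 and H3K36me3, marks found over transcribed genes, and their lower ends carried H3K27ac. At tio that end is shared with lncRNA:CR33987, so the H3K27ac there cannot be assigned to either gene. Over hth, the share of the body under H3K27me3 was 88.7% (D17), 96.4% (Kc167) and 97.9% (S2), and that under H3K36me3 was 0% in each line. Among all protein-coding genes, 7.65% had at least 50% of the body under H3K27me3 in D17, 15.4% in Kc167 and 16.1% in S2. With the same measure, 1 of the 3 genes passed in D17 (hth), 3 in Kc167, and hth in S2 with the other two unknown.

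**Figure D1:**
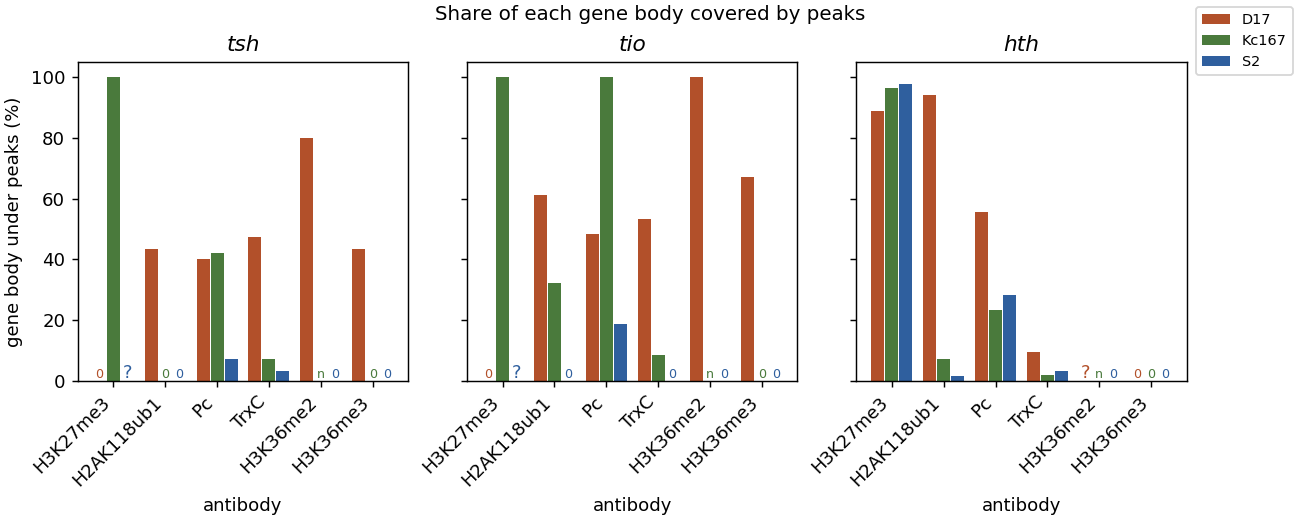
Percent of each gene body (vertical axis, 0 to 100) under peaks of the broad marks and of Pc and TrxC in D17, Kc167 and S2, 1 deposited list per value. H3K27me3 stands at 100 for tsh and tio in Kc167 and at 0 in D17, and at 88.7 to 97.9 for hth in all lines. A question mark stands where a number is skipped (S2 H3K27me3 at tsh and tio, D17 H3K36me2 at hth) and n where there is no list.

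Peaks fell in the tsh window in 41 of the 50 lists, in the tio window in 37 and in the hth window in 41. The lists were spread unevenly over the lines. In D17, tsh had a peak in 20 of 20 lists (68 peaks) and tio in 19 (63 peaks), where the median protein-coding gene had 13. As many lists were reached by 2.16% of genes in the case of tsh and by 5.97% in the case of tio. In Kc167, tsh reached 7 of 10 lists and tio 8, against a median of 9. In S2, tsh reached 14 of 20 and tio 10, against a median of 16. The long hth gene had peaks in 15 (D17), 9 (Kc167) and 17 (S2) lists, near the medians of 16, 9 and 17 for the 313 genes of at least 50 kb. Its window held 163 D17 peaks, 54 Kc167 peaks and 136 S2 peaks.

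**Figure D2:**
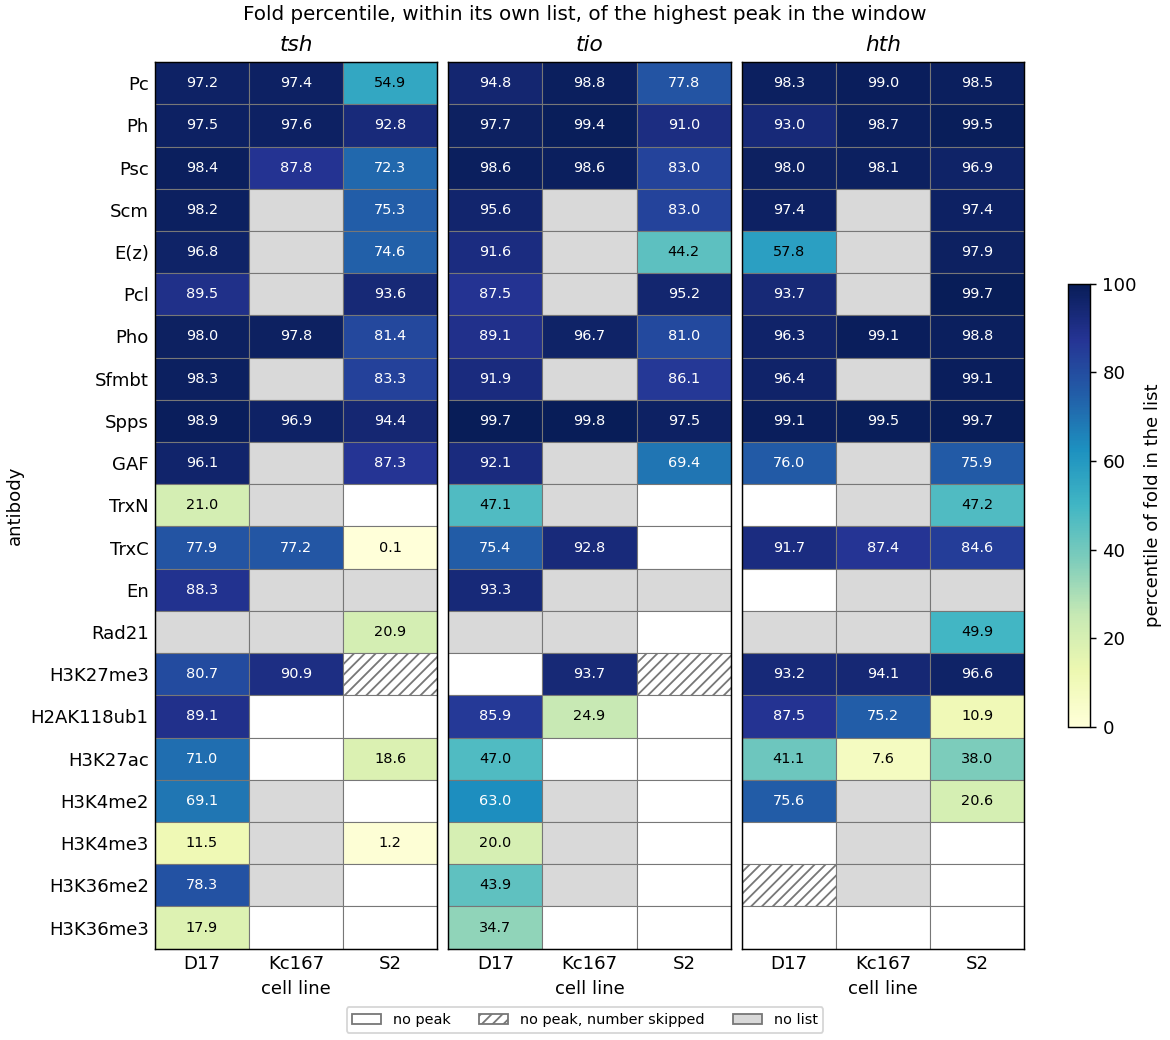
Percentile, within its own deposited list, of the peak with the highest fold in the window of each gene (columns, by line) for each antibody (lines of the grid); a blank cell has no peak, a hatched cell no peak at a skipped number, and a grey cell no list. PRC1 proteins, Pho, Sfmbt and Spps are high for hth in all lines and for tsh and tio in D17 and Kc167, and the cells of most active marks are blank for tsh and tio in S2.

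At tsh, 2 places held Ph or Pho peaks, and both did so in all 3 lines. The first lies on the lower end of the gene (2L 21827789 to 21829277). The second lies outside the gene, 18.4 kb from its lower end and beyond its higher end (2L 21846005 to 21847925). Sites, defined as Ph peaks overlapped by Pc, Psc and Pho peaks of the same line, were present at both places in D17 and Kc167 and at the first only in S2. All 3 genes had a site in their windows in every line. Among all protein-coding genes the share with one was 8.86% (D17), 56.8% (Kc167) and 13.4% (S2).

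The 2 tsh places differed in which proteins had the higher folds. At the lower end of tsh, Ph, a PRC1 subunit that forms polymers, reached a fold of 24.3 in D17, 25.4 in Kc167 and 13.4 in S2, all above the 92nd percentile of their lists. GAF, a factor that binds GA-rich DNA, reached 74.2 in D17 and 50.7 in S2. Pho, the DNA-binding subunit of the PhoRC complex, had only 2.33, 5.95 and 2.66 there. At the second place the order of GAF and Pho was the other way: Pho reached 21.1 in D17 and 25.8 in Kc167, while GAF was at 15.2 in D17. Ph had 19.5 there in D17 (percentile 94.4), 16.4 in Kc167 (92.9) and 4.09 in S2 (62.8).

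Sfmbt, the partner of Pho in PhoRC, followed Pho, with a fold of 2.95 at the lower end and 23.8 at the second place in D17. Pc, the PRC1 subunit that reads H3K27me3, had D17 folds of 3.80 at the first place and 12.7 at the second, and Kc167 folds of 7.76 and 10.1. In S2, the second place held no Pc peak, and Pho (4.88), Psc (3.45) and Spps (5.63) stood at percentiles of 81.4, 55.4 and 76.1, while in D17 they were at 98.0, 98.4 and 98.9. The S2 Pc list skips 1 number somewhere between 21107887 and 21827829, a stretch that ends at the lower end of tsh.

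Around tsh in D17 the marks differed along the gene. H3K27ac (fold 3.29, percentile 71.0), H3K4me2 (3.68, 69.1) and H3K4me3 (3.42, 11.5), marks of active promoters, had peaks at the lower end. H3K36me2 covered 79.8% of the body (highest fold at percentile 78.3) and H3K36me3 43.4% (percentile 17.9). H2AK118ub1, the mark made by PRC1, covered 43.3% of the body, and an H3K27me3 peak of 45.1 kb began 2021 bp beyond the higher end. The second place lies inside that H3K27me3 peak, whose fold of 1.62 is at percentile 80.7, while the first place lies outside it. In Kc167, 1 H3K27me3 peak of 179.8 kb (fold 1.85, percentile 90.9) spanned the whole window and no H3K27ac peak was present. In S2 the active marks were 1 H3K27ac peak at the lower end (1.79, percentile 18.6) and 1 H3K4me3 peak in the body (1.68, percentile 1.22).

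**Figure D3:**
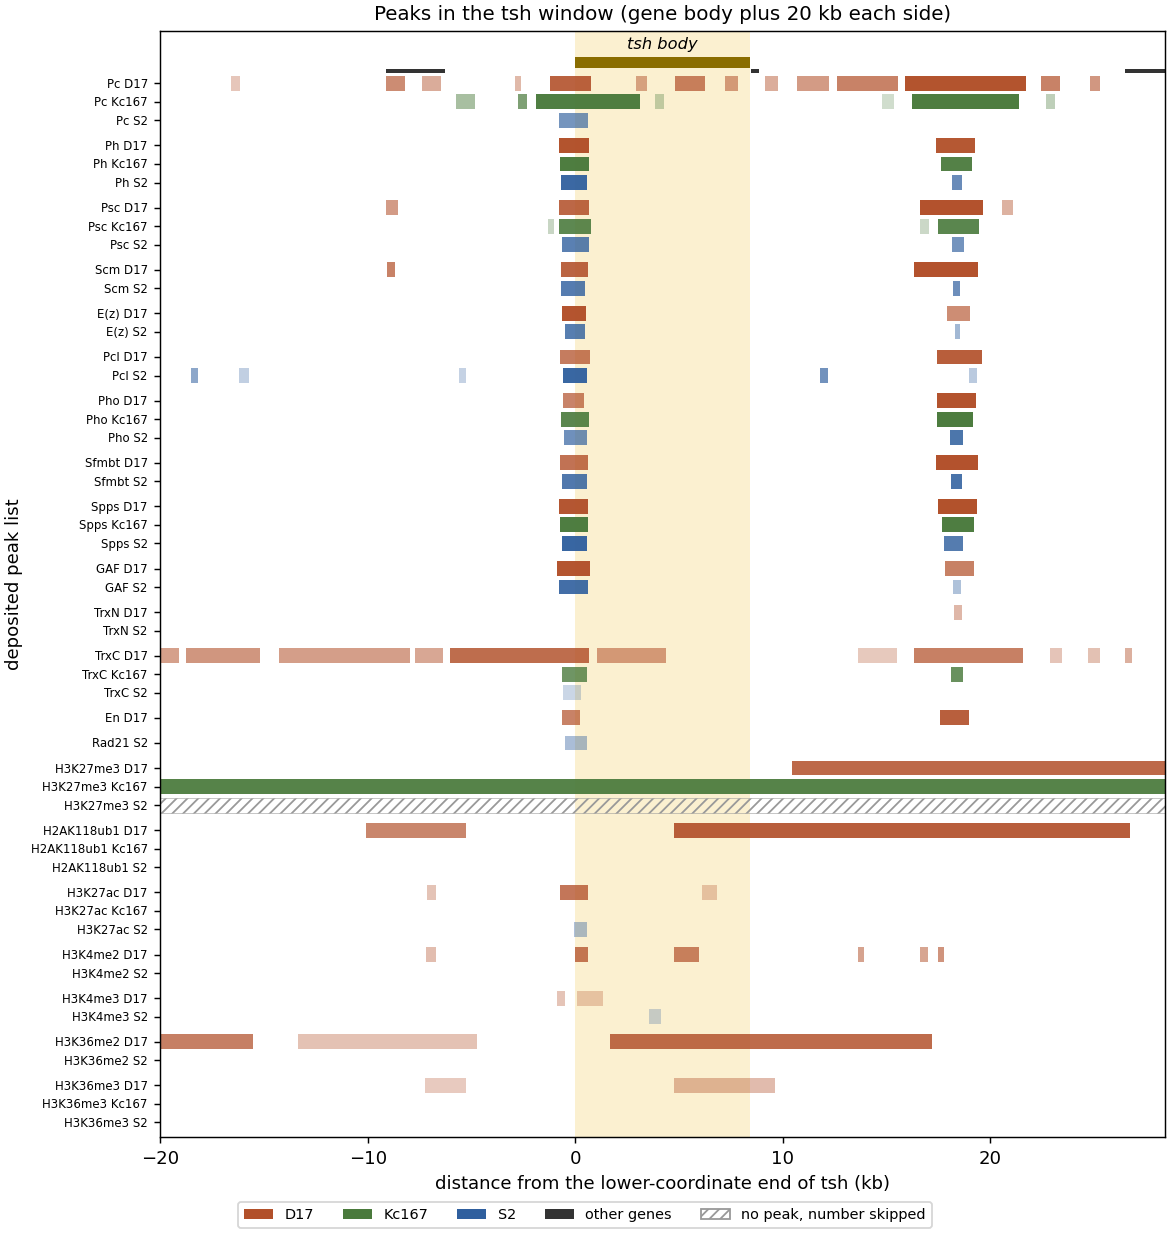
Peaks in the tsh window by list (vertical axis) against distance from the lower end of the gene in kb (horizontal axis), in D17, Kc167 and S2; bars are the authors' peaks, darker at a higher percentile, and the gene body is shaded. Peaks of most PcG proteins stack at 2 places, and the D17 H3K27me3 peak begins beyond the gene while the Kc167 peak spans the window.

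Tio also had 2 such places, both within its body or on its end. The place on the lower end (2L 22018559 to 22019957) held Ph in all 3 lines, at folds of 14.3 in D17, 17.5 in Kc167 and 4.39 in S2. Pho had a peak there only in Kc167 (2.64), and a site was present in Kc167 alone. D17 also lacked a Psc peak at this place, and S2 a Pc peak. The Kc167 Pc peak over it spans both tio places and has its summit 5700 bp from the Pho summit here. As at the lower end of tsh, GAF was high at this place in D17, with 58.2 (percentile 91.9). In S2 it had 14.8 (percentile 62.9). E(z), the PRC2 subunit that methylates H3K27, had 7.90 in D17 and was at percentile 39.0 of the S2 list.

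The second tio place, inside the gene 5.16 kb from the lower end (2L 22023553 to 22025185), was a site in all 3 lines. The Ph folds of D17, Kc167 and S2 were 24.7, 36.4 and 12.1. Spps, a zinc-finger protein that binds PcG response elements, had 48.5, 46.2 and 31.2, all above the 97th percentile of their lists. Psc, a PRC1 subunit, had 26.3, 31.2 and 11.6, and Pho had 6.72, 20.3 and 4.78. GAF had 59.2 in D17 and 20.3 in S2, so that at tio both places held high GAF peaks in D17, while at tsh only the lower end did.

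In D17, tio had no H3K27me3 peak anywhere in its window, and tio was the only one of the 3 genes for which this held. H3K36me2 covered 100% of its body (percentile 43.9), H3K36me3 67.2% (percentile 34.7) and H2AK118ub1 61.1% (percentile 10.0). Its window held 6 peaks each of H3K27ac and H3K4me2 and 5 of H3K4me3. The H3K4me3 peak on its body lay within lncRNA:CR33987. The highest H3K4me3 fold (5.27, against a list median of 9.52) lay beyond the gene, near the other end of the window, where neighbouring genes are also present. In Kc167, an H3K27me3 peak of 37.3 kb (fold 2.00, percentile 93.7) covered the body, Pc peaks covered 100% of it, and H2AK118ub1 32.2%. In S2, 10 of 20 lists had no peak at tio, among them all of H3K27ac, H3K4me2, H3K4me3, H3K36me2, H3K36me3, H2AK118ub1, TrxN, TrxC and Rad21.

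**Figure D4:**
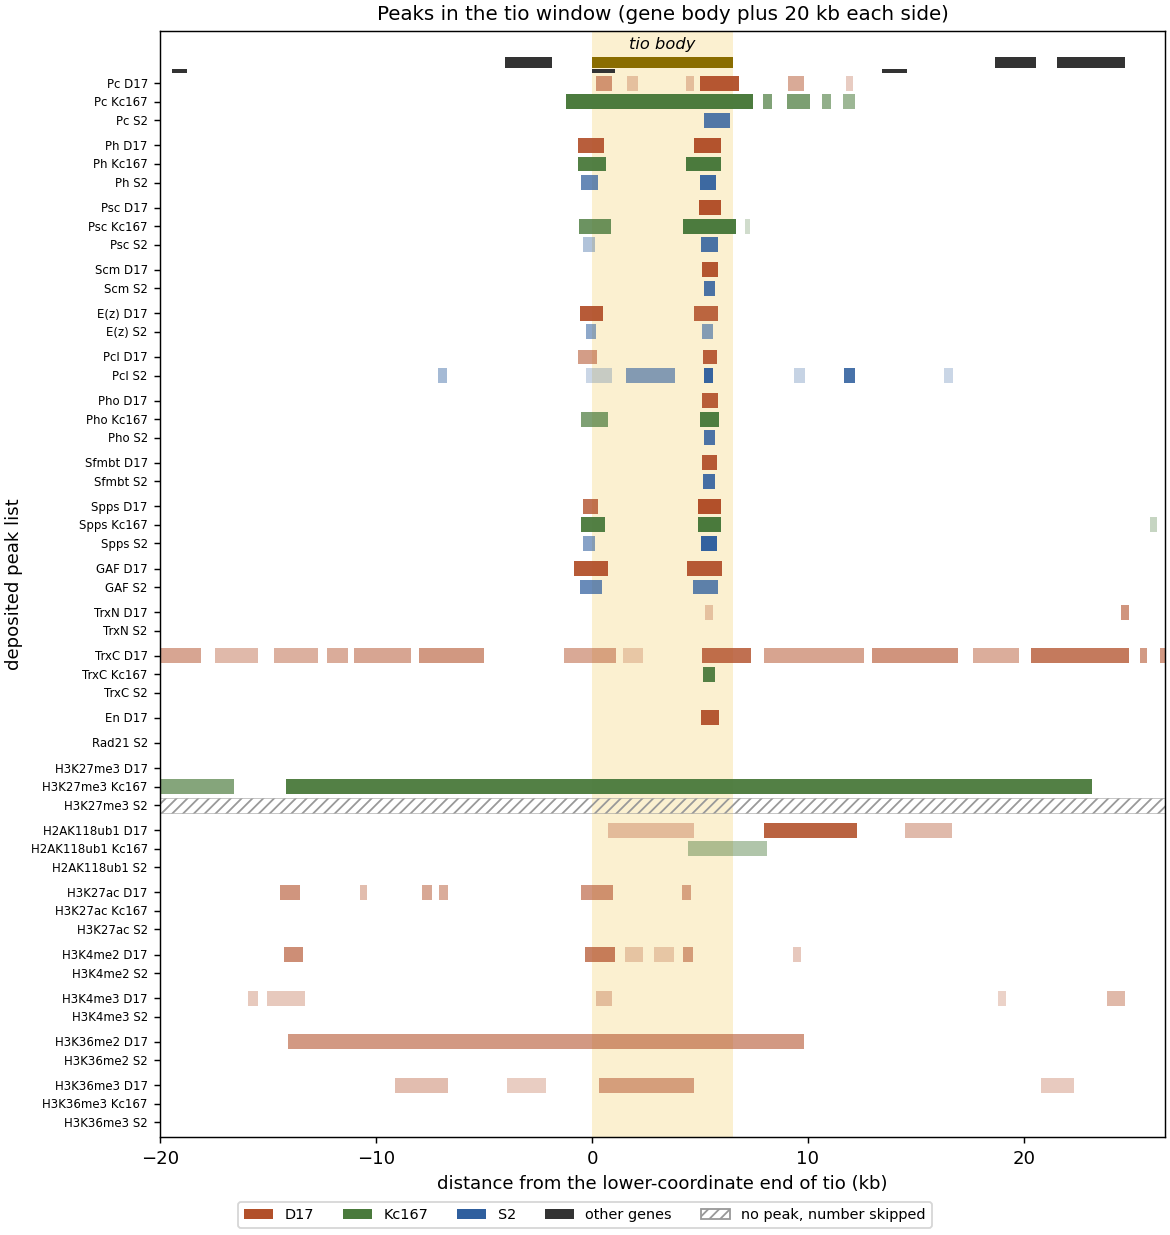
Peaks in the tio window by list (vertical axis) against distance from the lower end of the gene in kb (horizontal axis), in D17, Kc167 and S2; bars are the authors' peaks, darker at a higher percentile, and the gene body is shaded. D17 has no H3K27me3 peak and many TrxC peaks, and Kc167 has an H3K27me3 peak over the gene.

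The hth window held 13 places with Ph or Pho peaks, of which 5 were sites in all 3 lines and 4 in none. D17 had 8 sites there, and Kc167 and S2 had 6 each. The order of the lines rests on the definition: the higher-scoring 50% of each list gave 3 sites in D17 and 4 each in Kc167 and S2, and peak centres within 500 bp gave 1, 3 and 3. The places with high folds in all lines lay inside the gene, 28.4, 107.0 and 109.5 kb from its lower end. At the first of these (3R 10535484 to 10536411), the Ph folds of D17, Kc167 and S2 were 16.8, 22.8 and 23.7, and those of Pho 13.7, 27.6 and 22.8. At the second (3R 10613887 to 10615216), Ph had 17.7, 30.1 and 30.1, and at the third (3R 10616364 to 10617699) 15.4, 19.1 and 19.5. Thus these 3 places stood above the 90th percentile of the Ph list in each line. The Pc and Psc peaks over the third of them also span the second in each line. At the third, the Psc summit was 2624 bp (D17), 2646 bp (Kc167) and 2649 bp (S2) from the Pho summit. In Kc167 and S2 the same Pc peak also spans the place described next.

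The place 114.9 kb from the lower end of hth (3R 10621905 to 10622918) was a site in all lines but its rank differed. Ph had a fold of 3.61 in D17, against 28.0 in Kc167 and 34.9 in S2. Pho was at 3.56 (percentile 78.4), 49.0 (99.1) and 51.1 (98.8). In Kc167 and S2 this was the highest Pho peak of the window. The same held for Spps in S2 (85.6, percentile 99.7), against 4.79 (78.5) in D17, and for Sfmbt in S2 (48.8) against 3.60 in D17. TrxC was the exception: its fold was 4.59 in D17, the highest of that list in the window, 3.65 in Kc167 and 3.54 in S2.

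The remaining hth places were weaker. The fifth place, 49.8 kb from the lower end, was a site in every line with Ph folds of 2.03 in D17, 1.81 in Kc167 and 2.64 in S2. The places 10.4 and 20.2 kb from the lower end were sites in D17 alone, the second of them with Pho at 6.77. The Pc peak over that second place also spans the place 28.4 kb from the lower end and has its summit 8213 bp from the Pho summit. The place 61.2 kb from the lower end was a site in Kc167 alone. Pc spread more widely than the other PRC1 subunits, with 38 peaks touching the body and covering 55.6% of it in D17, 14 covering 23.1% in Kc167 and 16 covering 28.2% in S2. The D17 Pc peak with the highest fold (14.8) starts at 10657967, near the higher edge of the window, and runs beyond it to 10670852.

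H3K27me3 over hth formed long peaks that reached past the window on both sides. They were broken at different positions. D17 had 3 uncovered stretches, of 2.89, 2.03 and 9.98 kb, Kc167 had 1 of 4.73 kb and S2 had 1 of 2.81 kb. The 2.89 kb stretch of D17 (10580939 to 10583825) and that of S2 (10580945 to 10583754) began and ended within 0.1 kb of each other, and no narrow list of either line had a peak there. The other D17 stretches and the Kc167 stretch (10565915 to 10570643) each held PcG peaks and an H3K27ac peak.

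H3K27ac was sparse at hth. The 4 peaks in D17 had folds of 1.66 to 2.13, of which 1 lay wholly and 2 partly under H3K27me3 (11.8% and 62.3% of the peak). The single Kc167 peak (1.77, percentile 7.61) lay in the uncovered stretch. The 2 S2 peaks (percentiles 38.0 and 18.5) lay wholly under H3K27me3, the first of them on the fifth place. None of these peaks lay within 500 bp of an end of hth, and no H3K4me3 peak was present in the window in D17 or S2. H2AK118ub1 covered 94.2% of the body in D17 but 7.10% in Kc167 and 1.57% in S2. The lists of this mark also differ in extent over the genome, at 39.6 Mb in D17, 16.5 Mb in Kc167 and 15.5 Mb in S2. The S2 peak at hth was near the floor of its list (fold 1.51, percentile 10.9). The Kc167 H2AK118ub1 list skips 3 numbers between 10376030 and 10563380, so its value at hth can be an underestimate.

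**Figure D5:**
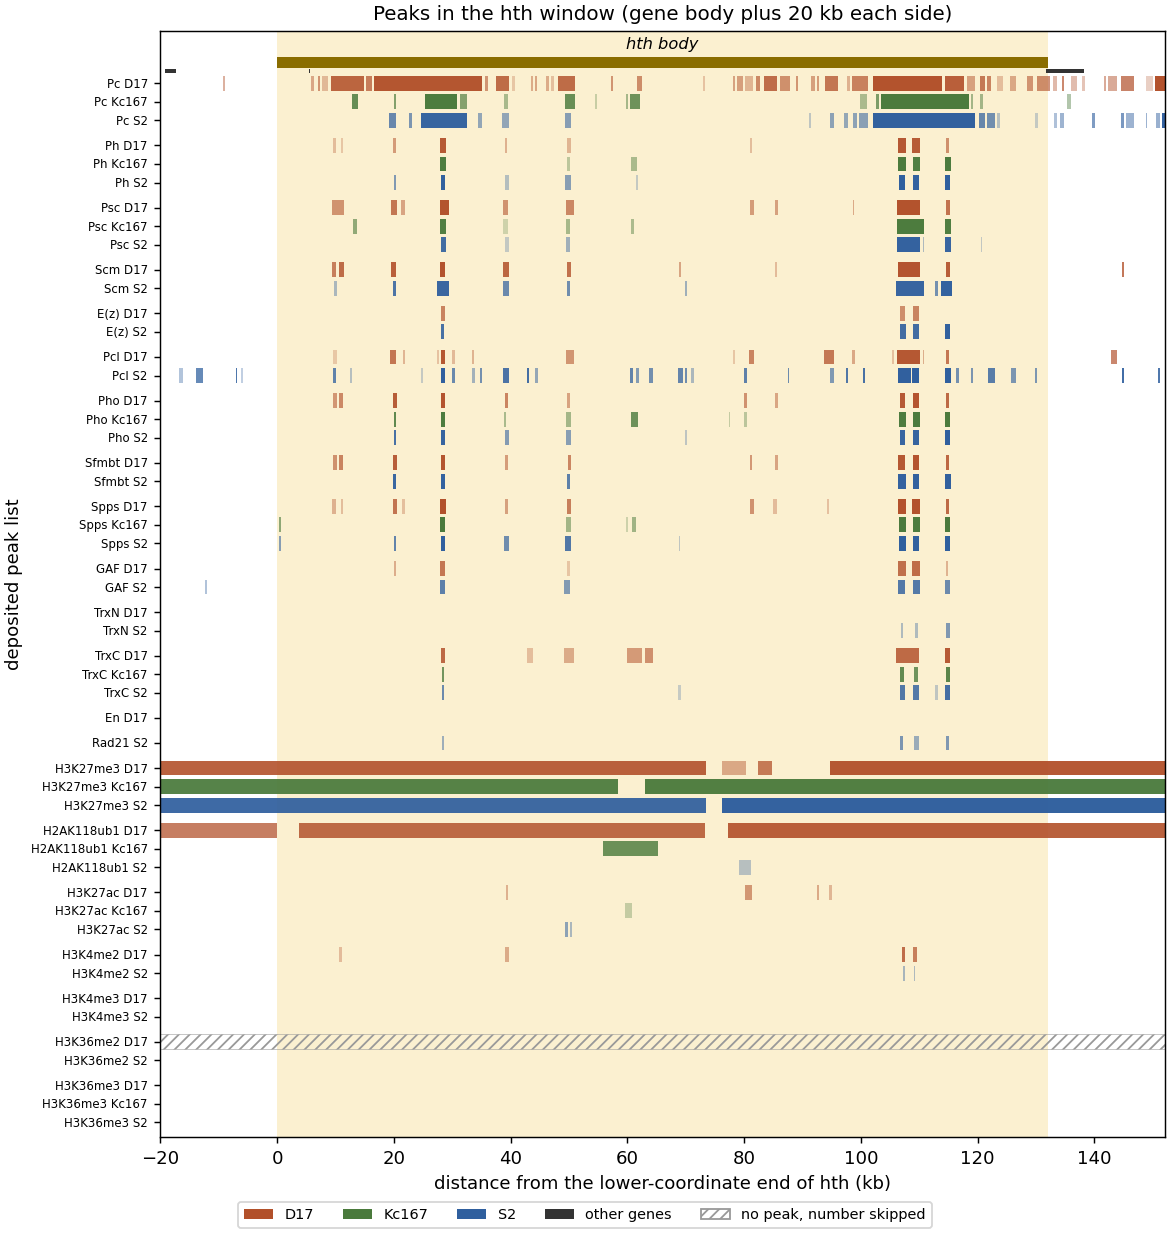
Peaks in the hth window by list (vertical axis) against distance from the lower end of the gene in kb (horizontal axis), in D17, Kc167 and S2; bars are the authors' peaks, darker at a higher percentile, and the gene body is shaded. H3K27me3 spans nearly the whole window in each line, and stacked peaks stand at 28.4, 107.0, 109.5 and 114.9 kb.

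Taking the antibodies by role, the PRC1 subunits come first. A Pc peak lay in the windows of all 3 genes in every line, and of 30.5% of genes in D17, 83.3% in Kc167 and 34.6% in S2. The highest Pc folds at tsh, tio and hth were 12.7, 8.82 and 14.8 in D17, 10.1, 16.7 and 18.1 in Kc167, and 2.19, 3.43 and 19.9 in S2. In S2, hth was therefore at percentile 98.5 of the Pc list and tsh at 54.9. For Ph, 3 of 3 genes had a peak in each line, against 63.8% of genes in D17, 83.3% in Kc167 and 71.6% in S2. Psc likewise had 3 of 3 in each line, where the shares of all genes were 48.4%, 88.7% and 78.1%. The Scm lists of D17 and S2 (a PcG protein that links PRC1 to other PcG complexes) had peaks at all 3 genes, against 42.7% and 23.8% of genes.

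Of the PRC2 antibodies, E(z) had peaks at all 3 genes in D17 (49.4% of genes) and S2 (55.6%). The highest E(z) folds were 10.2 at tsh, 7.90 at tio and 3.28 at hth in D17, and 3.51, 2.42 and 8.04 in S2. The order of hth and the other two was thus opposite in the 2 lists. Both E(z) lists skip numbers ending near 28 kb inside hth, 3 in D17 and 4 in S2, and the D17 list skips 5 that begin inside tio. Pcl, a PRC2 accessory subunit, had peaks at 3 of 3 genes in D17 (69.1% of genes) and S2 (87.5%), with highest folds of 6.00, 5.26 and 8.73 in D17 and 2.62, 3.16 and 16.4 in S2.

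The DNA-binding factors and their partner were present at all 3 genes in every line in which they were profiled. The shares of all genes were 61.7% in D17, 86.4% in Kc167 and 66.6% in S2 for Pho, 50.3% in D17 and 76.2% in S2 for Sfmbt, 72.6%, 92.8% and 83.2% for Spps, and 72.3% in D17 and 75.3% in S2 for GAF. Among these, GAF was the one in which tsh and tio stood above hth in D17, with highest folds of 74.2, 59.2 and 27.2. In S2 they were 50.7, 20.3 and 27.7. For Spps, hth held the highest fold of the 3 genes in S2 (85.6 against 15.6 at tsh and 31.2 at tio), and tio did in D17 (48.5 against 31.7 and 32.8) and in Kc167 (46.2, against 38.2 at hth).

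Trithorax was profiled with antibodies named TrxN and TrxC. TrxC peaks lay at 3 of 3 genes in D17 (76% of genes) and Kc167 (87.5%) and at 2 of 3 in S2 (61.7%), tio being without one. In D17, TrxC peaks covered 63.4% of the tsh window and 72.8% of the tio window, as much as in 2.69% and 1.81% of genes, but 7.13% of the hth window. The D17 TrxC peaks at tsh (11) and tio (15) had highest folds of only 2.90 and 2.73, so these were broad regions of modest fold. In Kc167 the TrxC peaks covered 3.68% of the tsh window, 1.20% of the tio window and 1.39% of the hth window.

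TrxN had peaks in the windows of 2 of 3 genes in D17 (74.5% of genes), tsh with 1 (fold 2.00) and tio with 2 (1.64 and 2.62). The tsh peak lies outside the gene, at its second place. Of the tio peaks, that of 1.64 (percentile 5.55) lies on the body and that of 2.62 on the higher end of CG31601. In S2, TrxN had peaks at hth alone (82% of genes), with 3 peaks of 2.01 to 3.50. The S2 peaks at hth lay on the places 107.0, 109.5 and 114.9 kb from its lower end. En, the homeodomain repressor Engrailed, was profiled in D17 only and had peaks at tsh and tio but not hth, against 39.8% of genes. Its highest folds were 5.28 at the second tsh place and 7.47 at the second tio place. Rad21, a cohesin subunit profiled in S2 only, had 1 peak at tsh (1.98), none at tio and 4 at hth (2.13 to 2.80), against 85% of genes, and each of these 5 peaks lay on a place with Ph and Pho.

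Of the repressive marks, H3K27me3 had a peak in the windows of tsh and hth in D17 (29.1% of genes), of all 3 genes in Kc167 (57.2%) and of hth in S2 (55.7%), tsh and tio being unknown there. H2AK118ub1 had a peak at 3 of 3 genes in D17 (81.6% of genes), at tio and hth in Kc167 (48.1%) and at hth alone in S2 (62.9%). At tsh and tio, H2AK118ub1 was therefore present in D17 on bodies with no H3K27me3 peak, and at tsh it was absent in Kc167 on a body wholly under H3K27me3. The D17 peak on the tio body was near the floor of its list (fold 1.52, percentile 10.0), while that on tsh had 1.85 (89.1). The tsh peak is 22.0 kb long with 3644 bp on the body, and it runs on into the H3K27me3 peak beyond the gene. Its fold is therefore not that of the body alone. In that list, 52.4% of genes had at least the window cover of tio, and 17.2% at least that of tsh.

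Of the active marks, H3K27ac had a peak in the windows of all 3 genes in D17 (88.8% of genes), of hth alone in Kc167 (85.6%) and of tsh and hth in S2 (86.2%). Within 500 bp of a gene end, H3K27ac was found at tsh and tio in D17 (54.8% of genes), at none in Kc167 (53.5%) and at tsh in S2 (52.1%). The tio end concerned is also that of lncRNA:CR33987. H3K4me2 lay at 3 of 3 genes in D17 (93.4%) and at hth alone in S2 (85.7%). H3K4me3 lay at tsh and tio in D17 (83.1%) and at tsh in S2 (82.7%). A window without a peak of these marks was thus the less common case among all genes.

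H3K36me2 had a peak at tsh and tio in D17 (59.1% of genes) and at none of the 3 genes in S2 (81.8%). At hth, the D17 H3K36me2 list skips 1 number between 10360169 and 10697579, so its absence there is unknown. H3K36me3 lay at tsh and tio in D17 (83.4%) and at none in Kc167 (81.6%) or S2 (81.2%). At least 50% of the body was under H3K36me3 at tio alone in D17 (45.7% of genes) and at none of the 3 in Kc167 (42.4%) and S2 (41.7%).

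Peak summits of several PcG proteins lay close to that of Pho at the places. Measured from the Pho summit, the median distance of the Ph summit was 26.5 bp over 12 places in D17, 34.5 bp over 10 in Kc167 and 16.5 bp over 10 in S2. Sfmbt summits lay at a median of 42 bp in D17 (13 places) and 12 bp in S2 (9 places). Pc summits lay farther off, at a median of 196 bp in D17 (13 places, 7 within 200 bp) and 138 bp in S2 (9 places, 5 within 200 bp), with up to 8213 bp in D17. Those of H3K27ac lay at a median of 518 bp over 4 places in D17. At the lower end of tsh the Ph summit was 279 bp from that of Pho in D17 and 107 bp in S2, while at the second tsh place these distances were 44 and 7 bp.

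The summits also fell at nearly the same base in different lines. For Ph the median difference was 12 bp between D17 and Kc167 (9 places), 9 bp between D17 and S2 (11 places) and 22 bp between Kc167 and S2 (10 places). For GAF it was 6 bp between D17 and S2 (9 places). For Pc it was 492 bp between D17 and S2 (9 places), the value of the fifth hth place. The Pc peak of each of these lines there covers that place alone. The largest differences, of 7675 and 8213 bp, lay at hth places where a wide Pc peak spans more than 1 place and has 1 summit.

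The genes with the most similar pattern were found from the mean absolute difference, over the 50 lists, in the share of the window covered by peaks. For tsh, tio itself was nearer (4.62 percentage points) than any other gene, against a median of 13.1 points over all genes. The next were CG1421 (5.21), CG31600 (5.31), CG11629 (5.37), CG1428 (5.41) and CG11634 (5.72), and all 5 lie between tsh and tio on chromosome 2L. For tio they were CG11634 (3.67), CG11630 (3.95), CG31600 (3.95), CG1421 (4.89) and CG1428 (4.90), of which 4 lie in that interval, against a median of 10.9. Windows in this interval overlap each other and share peaks.

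For hth, the nearest genes were salr (2.11), a zinc-finger gene of the spalt pair, Prat2 (2.11), Cpr35B (2.13), Pburs (2.36) and Sox21b (2.47), a Sox-family gene, against a median of 15.1 points. None of them lies near hth. The distance of hth was 8.86 points to tsh and 11.4 to tio. Between tsh and tio the distance was 8.93 points over the D17 lists, where the median gene was 16.1 points from tsh and 11.1 from tio. Over these lists, 52 genes were nearer to tsh than tio was, and 2186 were nearer to tio than tsh was. Over the Kc167 lists the distance was 2.84, where the median gene was 18.2 points from tsh, and the counts were 33 and 9. There, hth was nearer to tio (2.70) than tsh was. Leaving out the S2 list of H3K27me3 kept 4 of the 5 genes named for tsh and 5 of 5 for tio and for hth.

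Related genes were read with the same measures, H3K27me3 on at least 50% of the body and H3K27ac within 500 bp of an end. Of 10 partners of Hth and Tsh, 5 were covered in D17, 3 in Kc167 and 6 in S2. Those covered in all lines were ey, an eye selector gene, and the Hox genes Ubx and abd-A. The genes exd (the Hth partner), yki, arm and CtBP were at 0% in each line. Scr (93.7% and 96.3%) and Antp (100% and 100%) were covered in D17 and S2. Both had 0% in Kc167, where the list skips a number at each of them. In D17, Kc167 and S2, 3, 5 and 3 of the partners carried H3K27ac at an end, always including yki, arm and CtBP. The others, exd and toy, carried it in Kc167 only. A site was present in the windows of 6, 10 and 6 of them. For comparison, all protein-coding genes had H3K27me3 on at least 50% of the body in 7.65%, 15.4% and 16.1% of cases, H3K27ac at an end in 54.8%, 53.5% and 52.1%, and a site in 8.86%, 56.8% and 13.4%.

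Of 15 genes that act in distal or opposing domains of the appendages and eye, 11 were covered in D17, 13 in Kc167 and 15 in S2. The genes bab1 and bab2, which pattern the distal leg, were at 0% in D17 with H3K27ac at an end, and at 67.7% and 73.5% in Kc167, as for tsh and tio. Of 5 proximal or hinge genes, 4 were covered in D17, 4 in Kc167 and 5 in S2. Among these zfh2 was at 0% with H3K27ac at an end in D17 and Kc167, and at 93.2% without it in S2. Thus most genes of both domains were covered like hth, and tsh and tio in D17 stood with the smaller number that were not.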

How the data were processed

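ChIP-seq peak lists of 3 cell lines were analysed; reads and the series' other assays were not analysed here. Per the submitters' processing notes, the authors used Trim Galore 0.6.4, Bowtie2 2.3.5.1, SAMtools 1.13, MACS2 2.2.6 and bedtools 2.29.2 with BDGP6 (dm6). How replicates and input entered each list is not given in the sources used here. The deposited files are 39 narrow and 11 broad lists. Each peak has a deposited fold enrichment (a ratio), a deposited significance as −log10 q and a deposited score, equal to 10 times the −log10 q within 1. Scores served to pick the higher-scoring 50% of a list.

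The members and gene lists were chosen with earlier results of these data known. Gene positions came from a RefSeq table (assembly Release 6 plus ISO1 MT). Overlap meant at least 1 bp, and coordinates are 1-based. The percentile of a peak is its fold's rank within its list. Places are Ph or Pho peaks of any line merged within 1 kb; sites were merged likewise per line. By rule, the named peaks were those with the highest fold per gene and list, and the named genes were the 5 nearest in pattern per member and the related genes whose state differed between lines. Peaks at the other places, and related genes with the same state in all lines, were named after their values were seen. Because each list is 1 pooled value, values are descriptions without a test. Window counts equalled those of bedtools 2.31.1 in 150 of 150 comparisons, and the overlap code was tested on simulated data. Alternatives were flanks of 5 kb or none, at least 50% of a peak in the window, the higher-scoring 50% of peaks, equal list lengths, other definitions of a site, stretches at skipped numbers left out and, chosen after seeing the data, the S2 H3K27me3 list left out. Python 3.11.15, NumPy 2.4.6, pandas 2.3.3 and matplotlib 3.10.9 were used.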

Additional observations from a re-analysis of the deposited data

How the results depend on the processing

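Of the values recomputed under alternatives, 99 stayed within the tolerance (counts within 1.5 times, covered shares within the 95% binomial interval over bases) and 10 did not. The 99 include S2 H3K27me3 shares of 0% at tsh and tio, where the state is unknown. They also include H3K27me3 shares with skipped numbers left out at genes where the list skips none, which could not change. Requiring peak centres within 500 bp of each other lowered the sites at tsh in Kc167 to 1, at tio to 0 in D17 and 0 in Kc167, and at hth to 1 in D17, 3 in Kc167 and 3 in S2. Accepting any 3 of the 4 proteins gave 2 sites at tsh in S2 and 1 at tio in Kc167. This setting merges the peaks of all 4 proteins, and the wide Kc167 Pc peak joins the 2 tio sites into 1. Keeping the higher-scoring 50% of each list gave 3 sites at hth in D17 and 85.7% of its body under H3K27me3. The cause was not tested. With stretches at skipped numbers left out, H3K27me3 at tsh and tio in S2 has no value. Leaving out single replicates was not possible. No paired analysis was possible because each antibody and line has 1 peak list without values per replicate. Depth per library is unknown, so an absent peak does not show absent binding.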

Other observations

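Between the tsh and tio windows, a stretch of 142196 bp on 2L, each line had 1 further site of Ph, Pc, Psc and Pho. In D17 it lay at 2L 21898786 to 21899982, 62.4 kb beyond tsh and 120 kb below tio, with CG11629 and CG1421 within 5 kb. Ph had folds of 21.2 in D17, 24.7 in Kc167 and 15.7 in S2 there, and GAF 69.7 in D17 and 63.0 in S2. Pho was lower, with 4.27, 7.44 and 3.46, as at the lower end of tsh. H3K27me3 covered 27.2% of the stretch in D17 and 91.2% in Kc167.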
